A study of Xenopus tropicalis with 12 samples.

Results

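The 6 genes described here are the cyclins *ccnj* (feature XLOC_027945) and *ccnd2* (XLOC_033911), the cyclin-dependent kinases *cdk8* (XLOC_040437), *cdk11b* (XLOC_026683) and *cdk13* (XLOC_036716), and the transcription factor *e2f6* (XLOC_044083). They are 6 of the 33875 features with deposited counts, and all 6 were among the 22018 features that passed the filter on low counts and were tested. They were chosen from the study's list of genes regulated by T3 in wild-type (WT) tadpole brain, and their features were paired with symbols through a shortened table of that list, in which nearly all named genes are induced ones. Their rise in WT after T3 is therefore what selected them and is given as a description, with no test. RNA came from the preoptic area, thalamus and hypothalamus of *Xenopus tropicalis* tadpoles at Nieuwkoop-Faber (NF) stage 54. The study states that the dissected tissue also held the pituitary gland. There were 4 groups of 3 libraries: *thra* mutant tadpoles in T3, *thra* mutant tadpoles in vehicle, WT tadpoles in T3 and WT tadpoles in vehicle. The mutants, called thra mt-exon4 in the study, were homozygous for a TALEN-made mutation in exon 4 of *thra* that predicts a protein cut short before the DNA binding domain, from crosses of heterozygous frogs of a single mutant line. The hormone, 3,5,3'-triiodothyronine (T3), was added to the aquarium water at 5 nM for 16 h. The study's methods name a matching amount of dilute NaOH as the vehicle. Each library pooled tissue of 5 tadpoles. No feature could be paired with *thra*, so that genotypes are taken from the labels alone.

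Cyclins are regulatory subunits that switch on cyclin-dependent kinases (CDKs), and E2F factors control the transcription of genes needed for DNA synthesis. Some CDKs drive the cell cycle itself, while others act on RNA polymerase II and on pre-mRNA processing. The 3 kinases described here are known mainly for the second role. T3 acts through thyroid hormone receptors, which are transcription factors encoded by *thra* and *thrb*, and in the metamorphosing tadpole brain the hormone is known for increasing the division of neural progenitors.

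The libraries held 41012459 to 67603703 expected counts each. WT vehicle replicate 3 stood apart from the rest of its group. Over all features its counts differed from those of the other WT vehicle libraries by 29.9 and 39.2 in chi-square per degree of freedom, against 9.98 between those 2 and 6.77 to 20.7 within the other groups. The common dispersion was 0.0116 in *thra* mutant T3, 0.0148 in *thra* mutant vehicle, 0.00485 in WT T3 and 0.022 in WT vehicle. For all 6 genes WT vehicle replicate 3 was the lowest of the WT vehicle group, and for 5 of them it was the lowest of all 12 libraries. The values of the 6 genes and the counts of marker and list genes that rest on it are also given without it. Markers of neurons (*elavl3*, *snap25*, *stx1a*, *vsnl1* and *myt1l*) summed to 1830 to 2060 CPM (read counts scaled to library size) in every library, and those of radial glia (*slc1a3*, *ptprz1* and *prom1*) to 1530 to 1770, so the labelled tissue carried its markers.

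Levels of different genes were compared in TPM, RSEM's measure of transcript share, which corrects for feature length. The kinase *cdk11b*, which in mammals works with L-type cyclins in transcription and splicing, had the highest TPM of the 6, at 52.1 to 68.9 over the 12 libraries. *e2f6* came next at 27.5 to 36.0 TPM. The *e2f6* range lay apart from *cdk11b* above it and, within each group of libraries, from *cdk13* below it. The remaining members lay close together, at 23.0 to 28.9 TPM for *cdk13*, 18.7 to 28.9 TPM for *ccnd2*, 15.7 to 27.8 TPM for *ccnj* and 16.4 to 26.2 TPM for *cdk8*. In WT T3 the ranges of *cdk13*, *ccnd2* and *ccnj* overlapped, and in *thra* mutant vehicle those of *cdk13*, *ccnd2*, *ccnj* and *cdk8* formed an unbroken run. The place of *ccnj* was the one that moved. It lay above *cdk8* in 10 of 12 libraries and in 1 of the 3 WT vehicle libraries, where its mean of 17.6 ± 1.61 TPM was the lowest of the 6 (SD, n = 3). The *ccnd2* feature spans 19822 bases and is also named for c12orf5, a synonym of *tigar*, which is the adjacent gene in the RefSeq annotation of assembly UCB_Xtro_10.0. Reads of the neighbouring genes cannot be told apart in this feature, so every value under *ccnd2* may hold reads of *tigar*. The TPM of *ccnd2* also rests on the length of this shared feature, which may lower it, so its place in the TPM order is uncertain. By counts *ccnd2* was the highest of the 6, at 5280 to 9595 a library, against 2245 to 3710 for *cdk11b*.

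**Figure D1:**
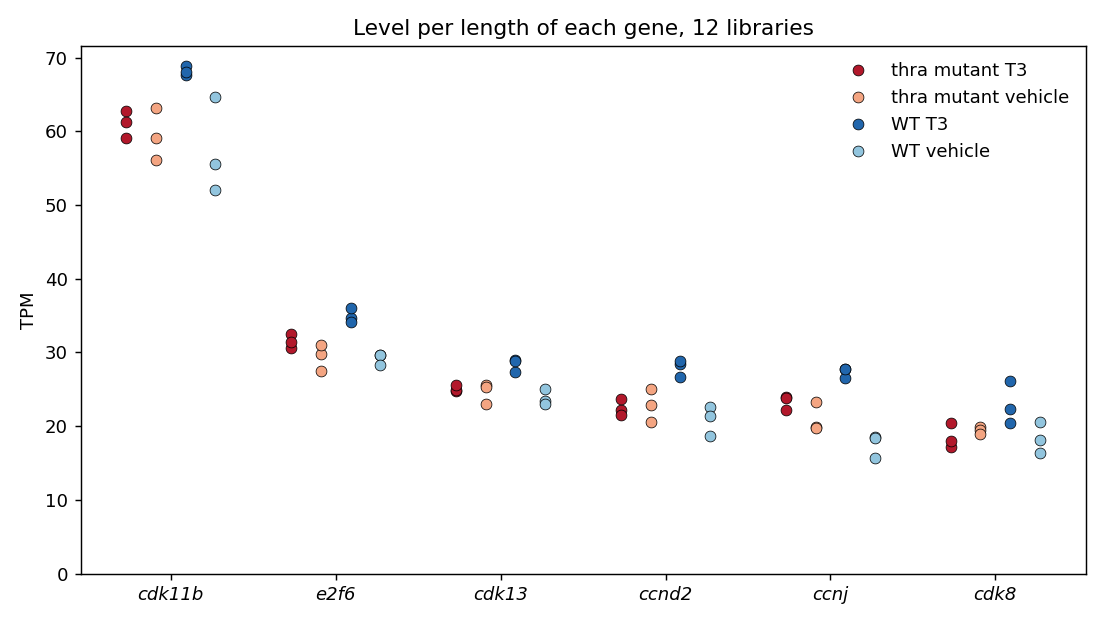
Level of each gene in TPM (y axis) in each of the 12 libraries, with genes ordered by mean level on the x axis and colours for the 4 groups. *cdk11b* lies between 52.1 and 68.9 TPM, *e2f6* between 27.5 and 36.0 TPM, and the other 4 genes share the range from 15.7 to 28.9 TPM.

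Between groups, levels were compared in CPM scaled by the TMM method. *ccnj* encodes cyclin J, an atypical cyclin whose *Drosophila* counterpart acts in oogenesis. It was at 30.6, 28.4 and 30.8 CPM in *thra* mutant T3, against 30.3, 25.7 and 25.9 CPM in *thra* mutant vehicle. In WT T3 it was at 35.6, 34.2 and 35.3 CPM, against 23.9, 24.4 and 19.8 CPM in WT vehicle. The mutant groups overlapped, whereas every WT T3 library was above every other library of the series. T3 over vehicle was 0.13 on the log2 scale in the mutant (SE 0.09, 95% interval -0.06 to 0.32, adjusted p = 0.678 by edgeR's quasi-likelihood test). In WT it was 0.63 (SE 0.09), a 1.54-fold higher level and the largest of the 6.

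*ccnd2* encodes cyclin D2, a D-type cyclin that carries cells through G1 by activating kinases that phosphorylate the retinoblastoma protein, and that in mouse brain is found in dividing progenitors. It was at 132, 141 and 129.8 CPM in *thra* mutant T3, against 151, 124 and 139.9 CPM in *thra* mutant vehicle. In WT T3 it was at 170.3, 160.1 and 171 CPM, against 135, 132 and 110.2 CPM in WT vehicle. The mutant T3 libraries lay inside the range of the mutant vehicle libraries, and the WT groups did not overlap. T3 over vehicle was -0.04 in the mutant (SE 0.08, 95% interval -0.23 to 0.14, adjusted p = 0.92 by edgeR) and 0.41 (SE 0.08) in WT on the log2 scale.

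*cdk8* encodes the kinase of the Mediator kinase module, which it forms with cyclin C and which controls how Mediator meets RNA polymerase II. It was at 12.4, 14.8 and 13.2 CPM in *thra* mutant T3, against 14.7, 14.3 and 14.1 CPM in *thra* mutant vehicle. In WT T3 it was at 19.03, 14.93 and 16.1 CPM, against 14.96, 13.6 and 11.7 CPM in WT vehicle. *cdk8* was the only one of the 6 whose WT groups overlapped, since WT T3 replicate 2 lay just under WT vehicle replicate 1. It also had the fewest counts, 561 to 949 a library, and the widest spread in WT T3, with a coefficient of variation of 12.7% against 1.22% to 3.67% for the other 5. T3 over vehicle was -0.09 in the mutant (SE 0.11, 95% interval -0.33 to 0.15, adjusted p = 0.856 by edgeR) and 0.31 (SE 0.11) in WT on the log2 scale.

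*cdk11b* was at 57.2, 55.8 and 54.6 CPM in *thra* mutant T3, against 58.5, 51.7 and 55.2 CPM in *thra* mutant vehicle. In WT T3 it was at 63.1, 62.0 and 61.6 CPM, against 59.3, 52.4 and 46.8 CPM in WT vehicle. The mutant T3 libraries lay inside the range of the mutant vehicle libraries. The WT T3 libraries were nearly level with each other, while WT vehicle spread widely and its highest library came close to WT T3. T3 over vehicle was 0.02 in the mutant (SE 0.08, 95% interval -0.14 to 0.18, adjusted p = 0.969 by edgeR) and 0.24 (SE 0.08) in WT on the log2 scale.

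*cdk13* encodes a kinase that pairs with cyclin K and phosphorylates the tail of RNA polymerase II during elongation. It was at 64.6, 65.2 and 67.6 CPM in *thra* mutant T3, against 67.8, 60.8 and 68.0 CPM in *thra* mutant vehicle. In WT T3 it was at 71.9, 76.0 and 74.98 CPM, against 65.8, 63.5 and 59.3 CPM in WT vehicle. All 3 WT T3 libraries were above the other 9 libraries. T3 over vehicle was 0.01 in the mutant (SE 0.06, 95% interval -0.12 to 0.13, adjusted p = 0.987 by edgeR) and 0.24 (SE 0.06) in WT on the log2 scale.

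*e2f6* encodes an E2F factor that lacks the transactivation and pocket-protein binding regions of its relatives and represses transcription together with Polycomb proteins. It was at 43.0, 45.7 and 44.6 CPM in *thra* mutant T3, against 42.4, 39.0 and 44.7 CPM in *thra* mutant vehicle. In WT T3 it was at 48.9, 48.2 and 50.2 CPM, against 41.9, 43.1 and 39.3 CPM in WT vehicle. The mutant groups overlapped and the WT groups did not. T3 over vehicle was 0.08 in the mutant (SE 0.06, 95% interval -0.05 to 0.21, adjusted p = 0.744 by edgeR) and 0.25 (SE 0.06) in WT on the log2 scale.

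**Figure D2:**
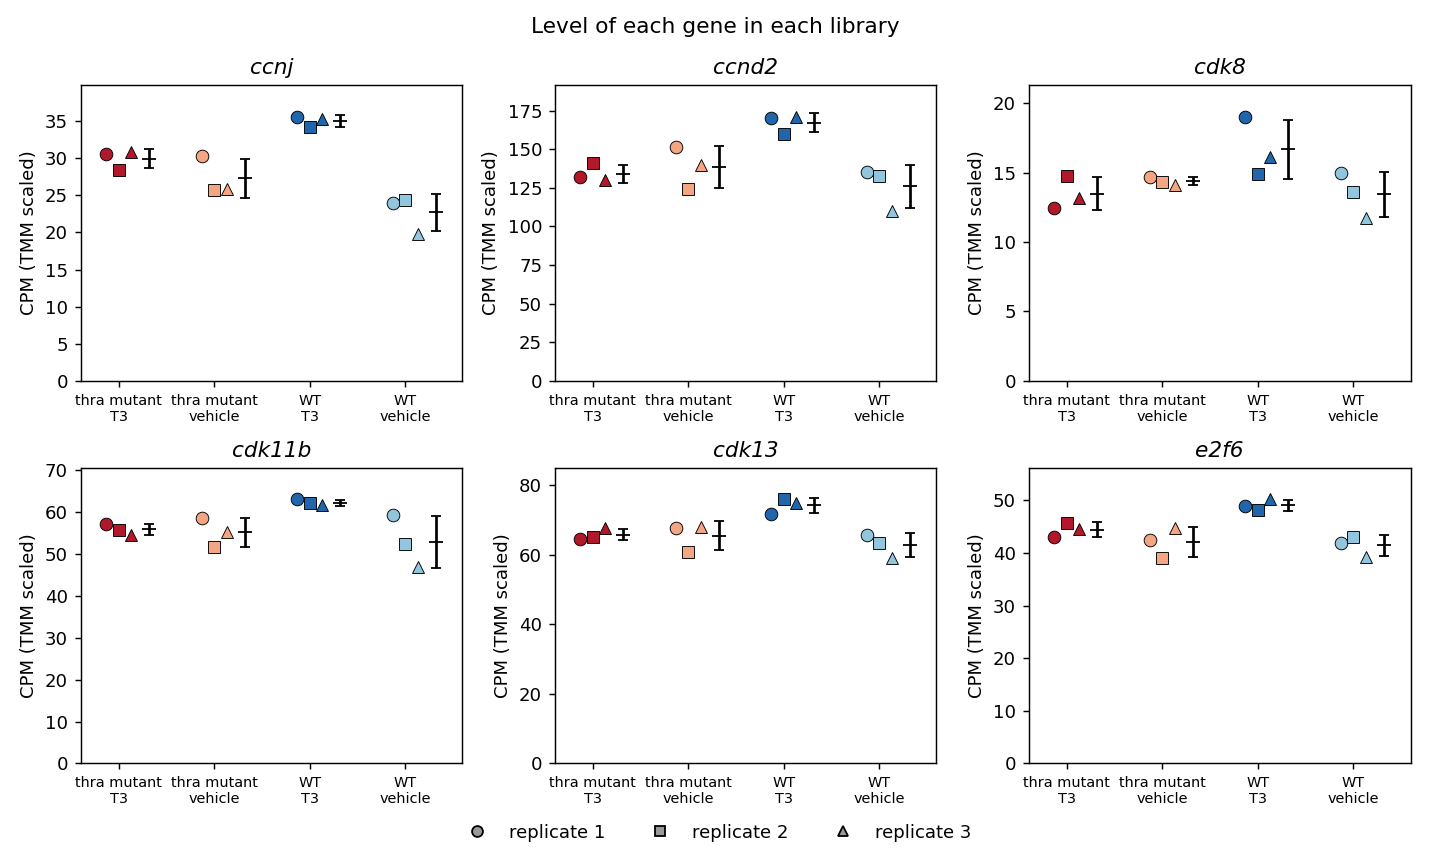
CPM (y axis, from 0) of each gene in each library by group (x axis), with the replicate number as the symbol and the group mean and SD as a bar beside the points. WT T3 has the highest library for all 6 genes, and replicate 3 is the lowest WT vehicle library for all 6.

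In *thra* mutant brain T3 changed 0 of the 6 genes by edgeR at an adjusted p of 0.05, where 0.254% of all features tested were called. At an unadjusted p of 0.05 the number was also 0 of 6, against 9.76% of all features. DESeq2 and limma-voom called 0 of 6 as well, where they called 1.78% and 0.186% of all features. The mutant groups overlapped for all 6 genes, while for 15.2% of all features they did not. The fold changes were of both signs, with a median of 0.01 on the log2 scale against 0.00 over all features. The 56 features called in this contrast had absolute log2 changes of 0.29 or more, with a median of 0.73, so a change as small as the WT median of the 6 genes, 0.28, was below every called one. The count of 0 therefore does not show that the genes lacked a response of that size. The intervals above give the range of changes that the data allow. For all 6 genes the upper bound in the mutant was below the gene's own WT estimate. The choice of the genes by their WT response favours this. The study took the genes from its WT list and reported, from these same mutant libraries, that T3 changed none of them in the mutant. The count of 0 was read with that known and is not independent of it.

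In WT, the contrast that chose the genes, all 6 were higher in T3, by a median of 0.28 on the log2 scale against -0.02 over all features. The WT groups did not overlap for 5 of 6, against 16% of features that were separate in this direction. Since the choice fixed this outcome, nothing is read from it.

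**Figure D3:**
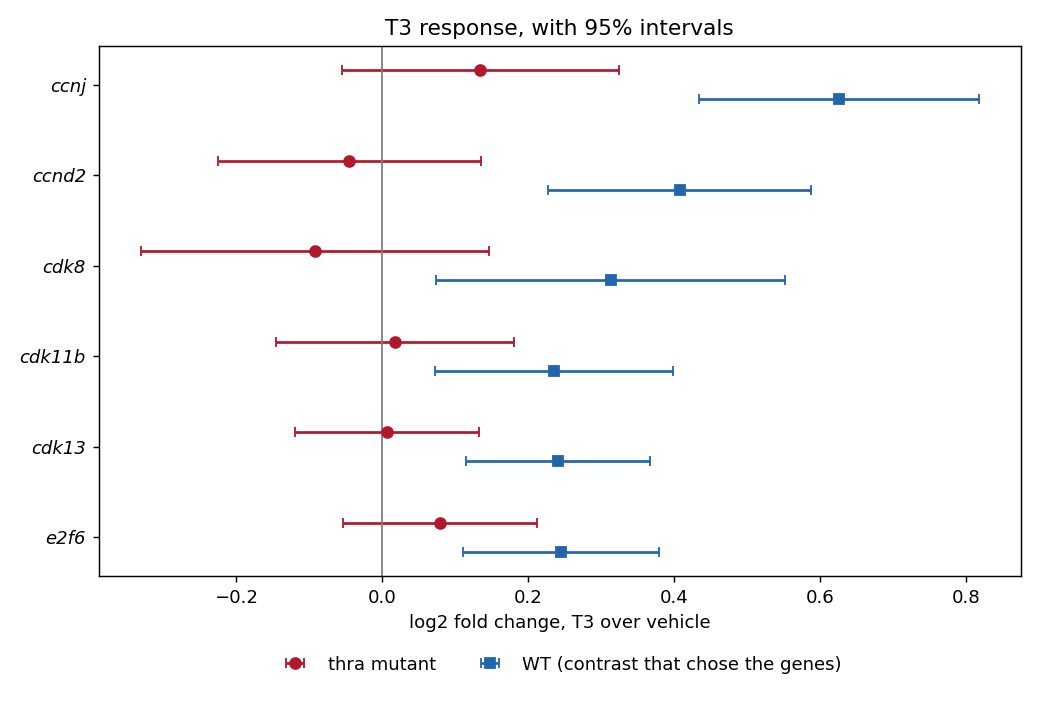
Log2 fold change of T3 over vehicle (x axis) for each gene (y axis) in the *thra* mutant (circles) and in WT (squares), with 95% intervals from the edgeR fit. All 6 mutant intervals include 0, and the WT estimates, which come from the contrast that chose the genes, run from 0.24 to 0.63.

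Set against WT under the same hormone, the *thra* mutant T3 libraries were lower for all 6 genes, and no mutant T3 library reached any WT T3 library. For 16.9% of all features the mutant T3 libraries were all lower in this way. The log2 fold change of mutant over WT was -0.32 for *ccnd2* (SE 0.08), -0.31 for *cdk8* (SE 0.11), -0.23 for *ccnj* (SE 0.09), -0.17 for *cdk13* (SE 0.06), -0.16 for *cdk11b* (SE 0.08) and -0.14 for *e2f6* (SE 0.06). Their median was -0.20, against 0.01 over all features. Of the 6, *ccnd2* passed the test (adjusted p = 0.0406 by edgeR), where 6.88% of features did, and the others had adjusted p values of 0.0885 to 0.226. The call of *ccnd2* was lost without any 1 of WT T3 replicates 1, 2 and 3 (adjusted p = 0.135, 0.069 and 0.139), *thra* mutant T3 replicates 1, 2 and 3 (0.113, 0.0664 and 0.123), WT vehicle replicate 2 (0.0522) or *thra* mutant vehicle replicate 3 (0.0555), while the fold change stayed between -0.36 and -0.29. Without WT vehicle replicate 3, *ccnd2*, *ccnj* and *cdk13* passed (adjusted p = 0.0097, 0.0495 and 0.0444 by edgeR), where 11.8% of all features did. Their standard errors there were 0.07, 0.07 and 0.05. The vehicle libraries are not part of this comparison. They bear on its adjusted p values through the fit, in which all 4 groups share an estimate of the spread. This comparison shares the WT T3 libraries with the one that chose the genes, which favours lower values in the mutant.

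In vehicle, no gene differed between genotypes by the test: 0 of 6 were called by edgeR at an adjusted p of 0.05, where 0.577% of features were, and 1 of 6 at an unadjusted p of 0.05, where 12.7% of features were. DESeq2 and limma-voom also called 0 of 6, where they called 2.38% and 0.618% of all features. All 6 estimates of mutant over WT were positive, at 0.27 for *ccnj* (SE 0.09, adjusted p = 0.229), 0.14 for *ccnd2* (SE 0.08), 0.10 for *cdk8* (SE 0.11), 0.06 for *cdk11b* (SE 0.08) and *cdk13* (SE 0.06), and 0.02 for *e2f6* (SE 0.06). Only *ccnj* had groups that did not overlap, at 25.7 to 30.3 CPM in mutant vehicle and 19.8 to 24.4 CPM in WT vehicle, a separation seen in this direction for 6.79% of features. Its 4 groups therefore stood in the order WT T3, mutant T3, mutant vehicle and WT vehicle, in which only the mutant groups overlapped. For the other 5 genes WT T3 had the highest mean, its libraries lay above all others except for the overlap of *cdk8* with WT vehicle, and the remaining 3 groups overlapped in a run. The WT vehicle libraries are shared with the comparison that chose the genes, and low values there raise both.

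**Figure D4:**
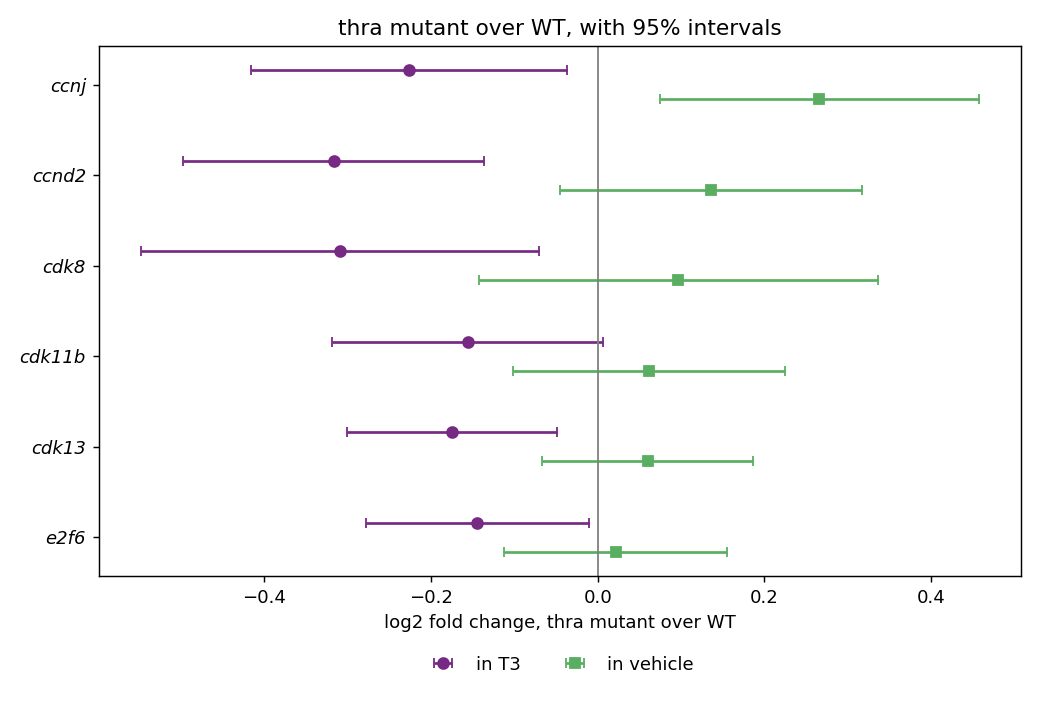
Log2 fold change of *thra* mutant over WT (x axis) for each gene (y axis) in T3 (circles) and in vehicle (squares), with 95% intervals from the edgeR fit. The 6 estimates lie between -0.32 and -0.14 in T3 and between 0.02 and 0.27 in vehicle.

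The difference of the T3 responses, mutant minus WT, was negative for all 6 genes and was called for 0 of 6 by edgeR, where 0.527% of features were called. It was -0.49 for *ccnj* (SE 0.12, 95% interval -0.76 to -0.22, adjusted p = 0.115) and -0.45 for *ccnd2* (SE 0.12, 95% interval -0.71 to -0.20, adjusted p = 0.123). It was -0.41 for *cdk8* (SE 0.16), -0.23 for *cdk13* (SE 0.08), -0.22 for *cdk11b* (SE 0.11) and -0.17 for *e2f6* (SE 0.09), with adjusted p values of 0.225 to 0.418. At an unadjusted p of 0.05 the count was 4 of 6, against 14.4% of all features. DESeq2 called 2 of 6, *ccnj* (adjusted p = 0.0123) and *ccnd2* (adjusted p = 0.018), where it called 2.97% of all features. Limma-voom called 0. The contrast holds the WT response by which the genes were chosen, which favours a call.

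Without WT vehicle replicate 3 the WT response to T3 was smaller for every gene, at 0.54 for *ccnj*, 0.32 for *ccnd2*, 0.23 for *cdk8*, 0.21 for *e2f6*, 0.20 for *cdk13* and 0.16 for *cdk11b*. Whether the WT groups overlapped could not change, because the library left out was the lowest of WT vehicle for all 6 genes. In vehicle the median of mutant over WT became 0.01 in place of 0.08, and the estimates of *cdk11b* and *e2f6* changed sign, to -0.02 each. The estimate of *ccnj* fell from 0.27 to 0.18 (adjusted p = 0.25 by edgeR). Its groups could not come to overlap when the lowest WT vehicle library was left out. The median difference of responses was -0.26 in place of -0.32, with 0 of 6 called by edgeR, where 0.575% of all features were.

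**Figure D5:**
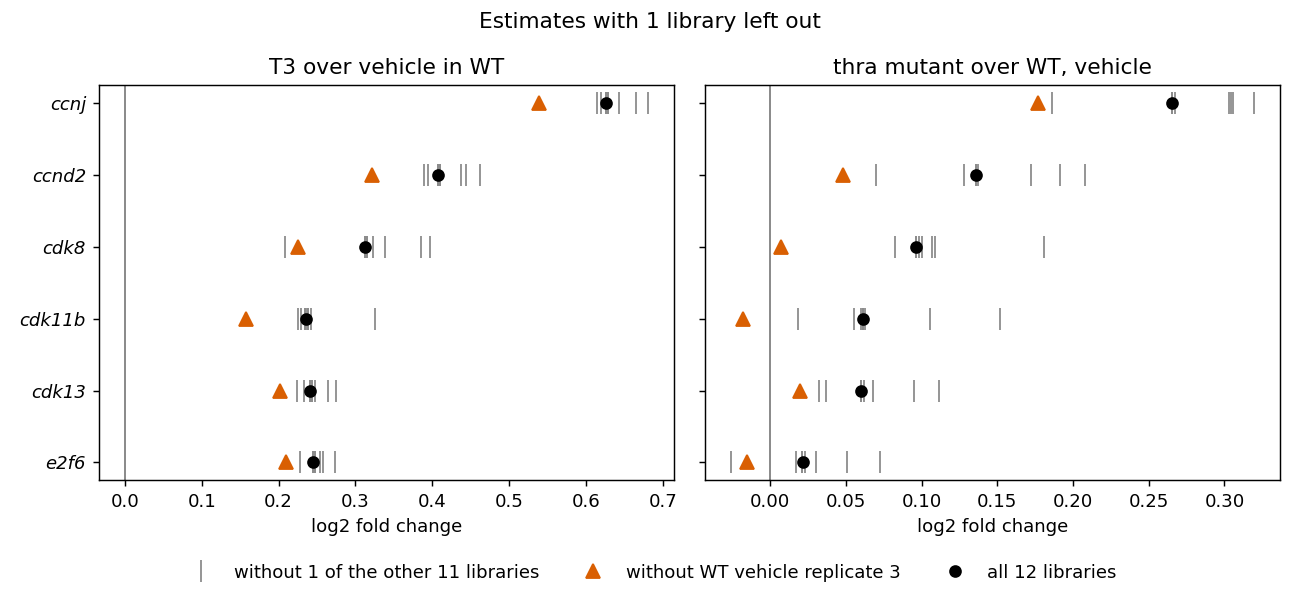
Log2 fold change (x axis) of each gene (y axis) for T3 over vehicle in WT (left) and *thra* mutant over WT in vehicle (right), with all 12 libraries (circles), without WT vehicle replicate 3 (triangles) and without each other library (ticks). In the right panel *cdk11b* and *e2f6* fall to -0.02 without that library, and in the left panel all 6 genes stay above 0.

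The replicates of a gene varied by 2.34% to 8.81% in *thra* mutant T3, 1.99% to 9.81% in *thra* mutant vehicle, 1.22% to 12.7% in WT T3 and 4.72% to 12.2% in WT vehicle (coefficient of variation of CPM, n = 3). Counting alone, taken as Poisson, would give 1.02% to 4.22% at these counts. Across the 12 libraries the 6 genes moved together, with Pearson's r of log2 CPM from 0.641 (*ccnj* and *cdk8*) to 0.918 (*ccnd2* and *cdk11b*). These points share libraries and the WT T3 group by which the genes were chosen, so the values are a description.

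Features that carry names of markers of other cells also moved with WT T3. Markers of skeletal muscle (*myoz1*, *lmod3* and *xirp1*) summed to 133 to 147 CPM in *thra* mutant T3 against 106 to 151 CPM in *thra* mutant vehicle, and to 179 to 195 CPM in WT T3 against 121 to 137 CPM in WT vehicle, with 3 of 3 higher in WT T3 by the test, where 5.37% of all features were. Each of these 3 features is also named for another gene, *myoz1* with *nolc1*, *lmod3* with *frmd4b* and *xirp1* with *dhx30*, so these values may hold reads of genes that do not mark muscle. Markers of epithelium (*epcam*, *krt12* and *cldn3*) summed to 9.44 to 46.0 CPM in mutant T3 against 10.4 to 16.4 CPM in mutant vehicle, and to 21.3 to 32.5 CPM in WT T3 against 9.60 to 11.9 CPM in WT vehicle, with 2 of 3 higher in WT T3. The *krt12* feature also carries a protein identifier as another name, so it too may hold reads of another gene. The otolith genes *otop1* and *OTOL1* summed to 5.30 to 7.91 CPM in WT T3 and to at most 0.206 CPM in any other library, with a count of 0 in 2 of 6 values in mutant T3, 3 of 6 in mutant vehicle, 0 of 6 in WT T3 and 2 of 6 in WT vehicle. Markers of neurosecretory neurons (*avp*, *oxt* and *sim1*) summed to 167 to 177 CPM in mutant T3 against 117 to 194 CPM in mutant vehicle, and to 251 to 294 CPM in WT T3 against 158 to 207 CPM in WT vehicle, with 1 of 3 higher in WT T3. Of the radial glia markers 1 was higher and 1 lower in WT T3, and of the 5 neuron markers 1 was higher and 1 lower, where 5.53% of all features were lower. Without WT vehicle replicate 3, those higher in WT T3 were 1 of 3 for muscle, 1 of 3 for epithelium, 2 of 2 otolith genes, 0 of 3 for neurosecretory neurons, 1 of 3 for radial glia and 1 of 5 for neurons, and 0 were lower. Of all features 6.84% were called in either direction without that library, against 10.9% with all 12. The part of these cells in the results for the 6 genes was not tested. All these markers came from the list of T3-regulated genes, and in bulk tissue fewer cells of a type and less RNA per cell cannot be told apart.

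Other genes of the cell cycle and of the transcription machinery were read from the same fit. Their symbols also came from the study's list for WT, so their rise in WT is not independent evidence of direction. Of 24 other cell cycle regulators, 14 rose in WT T3 and 1, *scaper*, fell, where 5.37% of all features rose and 5.53% fell. Since all the lists were drawn from T3-regulated genes, no excess over these shares is read as a result. The largest changes were 1.08 on the log2 scale for *gadd45g* (SE 0.23), a stress sensor that restrains the cell cycle, and 0.83 for c13orf15 (SE 0.11). In the mutant their T3 responses were 0.26 (SE 0.22) and 0.29 (SE 0.11). Of 5 DNA replication genes, 4 rose in WT, with *gins3*, of the replicative helicase complex, at 0.57 (SE 0.16) and *noc3l* at 0.42 (SE 0.08). In the mutant *gins3* had an estimate of 0.80 (SE 0.16, adjusted p = 0.0615 by edgeR), and it passed there by DESeq2 (adjusted p = 0.000454), with no filter on low counts (0.037) and without *thra* mutant T3 replicate 1 (0.0111) or WT vehicle replicate 3 (0.0445). These were 4 of 19 alternatives, and *gins3* did not pass under the rest. *myc*, a transcription factor that drives cell growth and division, is a member of the cell cycle list that is named after its values were seen. It was at 0.70 in the mutant (SE 0.13, adjusted p = 0.0533 by edgeR) and at 0.46 in WT (SE 0.13), and the difference of these responses was 0.24 (SE 0.19, adjusted p = 0.598). In the mutant it passed by DESeq2 (adjusted p = 7.13e-05), with no filter on low counts (0.0218) and without WT vehicle replicate 1 (0.0318), WT vehicle replicate 3 (0.0293) or *thra* mutant T3 replicate 1 (0.00932). These were 5 of 19 alternatives, and *myc* did not pass under the rest.

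Of 6 Mediator subunits, the partners of the *cdk8* module, 2 rose in WT T3, *med31* by 0.38 (SE 0.08) and *med16* by 0.35 (SE 0.09), where 5.37% of all features rose. Of 16 subunits of RNA polymerase II and its initiation factors, 10 rose in WT. The initiation factor *gtf2b* rose by 0.44 (SE 0.08), and the polymerase subunit *polr2h*, which did not pass, was also at 0.44 (SE 0.14). Of 9 Polycomb group genes, among which *e2f6* has its known partners, 6 rose in WT, with the histone methyltransferase *ezh2* at 0.67 (SE 0.16) and its partner *eed* at 0.42 (SE 0.07). Of 9 splicing factors 2 rose in WT, *tra2b* by 0.35 (SE 0.08) and *srpk1* by 0.32 (SE 0.09). The WT counts depended on single libraries and on the tool, and so did the share of all features called in either direction. That share was 10.9% in the main edgeR fit, 15.6% by DESeq2 and 9.83% by limma-voom. It was 3.82%, 6.5% and 3.68% without WT T3 replicates 1, 2 and 3 in turn. Without WT vehicle replicates 1, 2 and 3 in turn it was 9.95%, 7.64% and 6.84%. Without WT T3 replicate 1 the list counts were 2 cell cycle regulators, 2 DNA replication genes, 0 Mediator subunits, 3 polymerase or initiation factors, 1 Polycomb gene and 1 splicing factor. Without WT T3 replicate 2 they were 8, 1, 2, 5, 3 and 1 in the same order. With WT T3 replicate 3 left out they were 4, 1, 1, 4, 1 and 0. With WT vehicle replicate 3 left out they were 8, 1, 1, 4, 4 and 1. Without WT vehicle replicate 1 there were 4 Mediator subunits, and without WT vehicle replicate 2 there were 2 DNA replication genes and 1 splicing factor. The splicing count was also 1 without *thra* mutant vehicle replicate 3 or *thra* mutant T3 replicate 1 or 3. Of all features 9.73%, 9.71% and 9.52% were called there, in the same order. DESeq2 called 23, 5, 6, 15, 9 and 7, and limma-voom called 13, 4, 2, 10, 6 and 2. In the *thra* mutant T3 changed 0 of the 69 genes of these 6 lists by edgeR at an adjusted p of 0.05, where 0.254% of all features were called, and 8 of 69 had an unadjusted p under 0.05, against 9.76% of all features. DESeq2 called 2 of the 69 there, *gins3* and *myc*, where it called 1.78% of all features. In vehicle 0 of 69 differed between genotypes by edgeR, where 0.577% of all features did, and 5 of 69 had an unadjusted p under 0.05, against 12.7% of all features. DESeq2 called 1 there, where it called 2.38% of all features. This was the Polycomb gene *cbx6*, higher in the mutant by 0.24 (SE 0.07, adjusted p = 0.0313 by DESeq2). At these shares a count of 0 among 69 genes is not a result about the lists. Under T3 the mutant was lower for 8 of the 24 cell cycle regulators, 1 DNA replication gene, 1 Mediator subunit, 1 Polycomb gene and 1 polymerase or initiation factor, where 3.18% of all features were lower. Of the 9 splicing factors 2 were higher in the mutant and 0 lower, where 3.7% of all features were higher. These counts share the WT T3 libraries with the contrast that chose the lists, which favours differences from the mutant. No excess over the shares is read as a result here either. With single libraries left out the cell cycle count in this comparison ran from 1, among others without WT T3 replicate 1, to 10, without WT vehicle replicate 3. In those 2 fits 1.67% and 11.8% of all features were called in either direction.

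For each of the 6 genes the named features closest in pattern over the 12 libraries were found among 1554. They were *dot1l* (r = 0.963) for *ccnj*, and *rer1* (0.98) and *usp27x* (0.972) for *ccnd2*. They were *zbtb33* (0.912) and *mrpl43* (0.903) for *cdk8*, and the feature shared by *fst* and *ndufs4* and the Mediator gene *med23* (0.957 each) for *cdk11b*. For *cdk13* they were *utp15* (0.986) and *tcf25* (0.971), and for *e2f6* *naa10* (0.983) and *ruvbl1* (0.977). The named features were nearly all chosen for a T3 response in WT, and the libraries are shared, so high values are common among them.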

How the data were processed

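The submitters' processing notes name CASAVA 1.8.2, cutadapt, Bowtie, RSEM and limma. The authors mapped single-end reads to the v4.1 genome, counted them with RSEM on a custom gene model and deposited expected counts, which are not normalized and divide an ambiguous read among features. The authors also deposited TPM values, which RSEM divides by feature length and which were used for levels between genes.

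Expected counts were rounded to whole numbers, filterByExpr left 22018 features, and these were fitted over all 12 libraries with edgeR 4.0.16 (TMM scaling, also for CPM, quasi-likelihood test, two-sided, Benjamini-Hochberg over all features, threshold 0.05, R 4.3.3). The methods name limma, and limma-voom (limma 3.58.1) and DESeq2 1.42.0 were alternatives, as were other scaling, no filter, only the groups compared, a replicate block, no new_exon features and each library left out. Intervals are 95%. A standard error is the fold change divided by the root of its F. The steps were tested on simulated counts for T3 in the mutant. They recovered 1 of 100 features changed by 0.25 on the log2 scale and 91 of 100 changed by 1, with 3 false calls. The changed features were drawn at random from those with a mean above 1 CPM. These shares therefore do not give the recovery expected for the 6 genes. The 6 genes, the lists and the markers were chosen with earlier results of these data known. All 6 genes are named, with the 2 largest WT responses of each list, any list member called for T3 in the mutant or for genotype in vehicle, and the 2 named features most alike in pattern. Values of some further genes that this rule or the markers would name are not reported here. The promoter and protein description was not run, and the study's other cyclins and kinases were not analysed here. Of these the study lists *cdk2* as induced by T3 in WT, and *cdk19*, *ccni* and *ccng2* as repressed.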

Additional observations from a re-analysis of the deposited data

How the results depend on the processing

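The number of the 6 genes called was 0 for T3 in the *thra* mutant and 0 for *thra* mutant over WT in vehicle under all 19 alternatives. These called 0.111% to 1.78% and 0.132% to 2.38% of all features, in that order. At such shares a count of 0 of 6 is not a result about the genes. For mutant over WT in T3, 1 was called in the edgeR fit, where 6.88% of all features were. DESeq2 called 2, against 12.2% of all features, and a fit of only the groups compared called 4, against 14.8%. Fits that each dropped a single library called 0 to 3 of the 6, and 1.31% to 11.8% of all features. The 3 were called without WT vehicle replicate 3, where 11.8% of all features were. For the difference of responses DESeq2 called 2, where it called 2.97% of all features. Under the other 17 alternatives 0 were called, where 0.17% to 0.648% of all features were. With single libraries left out, the median of mutant over WT in vehicle ran from 0.013 to 0.17 on the log2 scale.

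Some estimates near 0 changed sign when single libraries were left out. For T3 in the mutant, *ccnd2* ran from -0.12 to 0.02 (positive without mutant vehicle replicate 1), *cdk11b* from -0.027 to 0.059 (negative without mutant vehicle replicate 2) and *cdk13* from -0.047 to 0.034 (negative without mutant vehicle replicate 2 and, at -0.014, without mutant T3 replicate 3). For mutant over WT in vehicle, *cdk11b* ran from -0.018 to 0.15 (negative without WT vehicle replicate 3) and *e2f6* from -0.026 to 0.073 (negative without mutant vehicle replicate 3 and, at -0.016, without WT vehicle replicate 3). The cause was not tested.

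Same-numbered libraries did not deviate together (r of deviations from group means -0.085 to 0.072), so the numbers were not taken as pairs. With the replicate number as a block, 0 of 6 were called for mutant over WT in T3, where 4.86% of all features were. There *ccnd2* was at an adjusted p of 0.0556 by edgeR. The count was also 0 of 6 in the other tested comparisons, where 0.136% to 0.345% of all features were called. The list and marker counts and the *gins3* and *myc* estimates under other settings were added after the data were seen.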
